A study of Mus musculus with 18 samples.

Results

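The 10 genes described here carry the MHC class I route of antigen presentation in mouse GL261 glioma. They are the 5 heavy chains H2-K1, H2-D1, H2-T23, H2-M2 and H2-M3, the light chain B2m, the peptide pump subunits Tap1 and Tap2, the loading chaperone Tapbp and the transactivator Nlrc5. They were taken by symbol, or by an older symbol in the case of Nlrc5, from the 30854 genes of a deposited gene-level table, and all 10 were found and tied to their array probes. The genes were selected on measured values, the differences between WT and Pfp/Rag2 -/- hosts in these same arrays, so those differences are given below as a description and without p-values. With those results known, H2-M2 was chosen as the chain to be set against the other 4.

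MHC class I molecules display short peptides from inside a cell to CD8+ T cells. Tap1 and Tap2 pump peptides cut by the proteasome into the endoplasmic reticulum, where Tapbp (tapasin) holds empty heavy chains paired with B2m at the pump until a peptide fits. Interferon-gamma raises the expression of most of these genes, and Nlrc5 is the transactivator that drives class I promoters. In healthy brain the pathway is known to be weakly expressed.

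The study set GL261 tumours grown in WT C57BL/6 mice against tumours grown in Pfp/Rag2 -/- mice of the same strain background, with cultured GL261 cells and healthy brain beside them. Pfp stands for perforin, with which cytotoxic lymphocytes pierce their targets, and mice without Rag2 make no mature T or B cells. Pfp/Rag2 -/- hosts keep natural killer cells, but these lack perforin. Tumours were taken on day 7 or day 14 after injection, or when the mice became symptomatic, from 4, 4 and 6 mice of each host type, and each array holds RNA pooled from 2 or 3 animals. This gave 2 arrays for each host type on day 7 and on day 14, 3 arrays for each at the symptomatic stage, 2 arrays of healthy brain labelled WT C57BL/6 and 2 arrays of cultured GL261 cells, 18 arrays in 8 groups. The healthy brain arrays also carry the cell line label GL261, unlike their titles. Summed signal of 3 neuron markers was 42044 to 42822 on them and 186 to 224 on cultured cells. All tumours came from 1 cell line, and neither age, sex nor injection site is given in the sources used here. The labels do not say which mice went into which pool, so p-values measure only the spread between arrays.

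Values are log2 probe signals from Illumina MouseWG-6 v2.0 arrays after background correction on 936 negative control probes and quantile scaling, with each gene read by its brightest detected probe. A probe counts as detected on an array when its signal exceeded the negative controls at p under 0.01, and as tested when detected on at least 2 arrays. That left 13795 genes, including all 10 members, of which H2-M2 passed only through 5 WT tumour arrays. Between 32.6% and 39.8% of probes were detected per array. "Called" below means an adjusted p under 0.05 in limma's moderated test, with Benjamini-Hochberg adjustment over all 13795 genes and 1 estimate of the spread from all 18 arrays. Levels of different genes come from different probes, so the text compares a gene with itself across groups only. Neither deleted gene could serve as a check of the labels: the Rag2 probe was detected on 0 of 18 arrays, and of the 2 Prf1 probes 1 was detected on every array, cultured cells included, and the other only on both WT day 14 arrays.

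H2-K1 and H2-D1, the classical heavy chains that restrict most CD8+ T cells in this strain, were present everywhere and highest in WT day 14 tumours. H2-K1 read 6.50 and 6.69 in healthy brain and 8.48 on both arrays of cultured cells. In WT tumours it read 10.52 and 10.74 on day 7, 11.47 and 12.19 on day 14, and 11.18, 11.55 and 11.45 at the symptomatic stage. In Pfp/Rag2 -/- tumours it read 10.16 and 9.86 on day 7, 10.46 and 10.69 on day 14, and 10.34, 10.36 and 9.98 at the symptomatic stage. Brain was the lowest and cultured cells the next lowest, WT arrays lay above Pfp/Rag2 -/- arrays at each stage without overlap, and WT day 7 overlapped Pfp/Rag2 -/- day 14. H2-D1 followed the same order of groups, from 8.96 and 9.04 in brain and 10.86 ± 0.11 (SD, n = 2) in cultured cells to 13.35 ± 0.05 (n = 2) in WT day 14 tumours. Its Pfp/Rag2 -/- means stayed between 12.32 and 12.58, where the 3 stages lay close together.

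H2-T23 encodes a non-classical chain that presents leader peptides of other class I chains to CD94/NKG2 receptors. It averaged 8.17 ± 0.13 (SD, n = 2) in brain, 10.03 ± 0.02 (n = 2) in cultured cells, 13.09 ± 0.19 (n = 2), 13.51 ± 0.16 (n = 2) and 13.22 ± 0.28 (n = 3) in WT tumours from day 7 to the symptomatic stage, and 11.94 ± 0.15, 12.55 ± 0.25 and 12.14 ± 0.15 in Pfp/Rag2 -/- tumours at the same stages. WT and Pfp/Rag2 -/- arrays did not overlap at any stage, and even the highest Pfp/Rag2 -/- array lay below the lowest WT array.

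H2-M3 encodes a non-classical chain known for presenting N-formylated peptides. It read 7.02 and 6.96 in brain and 7.59 and 7.38 in cultured cells. In WT tumours it read 9.78 and 9.95 on day 7, 10.55 and 10.91 on day 14, and 9.87, 10.51 and 10.46 at the symptomatic stage. In Pfp/Rag2 -/- tumours it read 8.89 and 9.09, 8.93 and 9.02, and 8.60, 8.81 and 8.80 at the same stages. The Pfp/Rag2 -/- groups lay within a narrow span over time, while the WT groups went up from day 7 to day 14.

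H2-M2, another chain of the M region, whose peptide and receptor are not described here, had a different distribution. It read 4.49 on both brain arrays, 4.57 and 4.54 in cultured cells, 5.11 and 4.83 in WT day 7 tumours, and between 4.76 and 5.49 on all 7 arrays of Pfp/Rag2 -/- tumours, and it was detected on none of these 13 arrays. In WT day 14 tumours it read 8.85 and 7.92, and in WT symptomatic tumours 9.52, 9.37 and 9.57, detected on all 5. The signal thus stood above background in these 2 groups alone, and the other 6 groups have no order that can be read, since a probe at background gives only an upper bound. Of the other 4 chains, H2-K1, H2-D1, H2-T23 and H2-M3 were detected on all 18 arrays.

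B2m, the light chain that every one of these heavy chains needs at the cell surface, was near the top of the signal range throughout: the lowest percentile of its probe on a tumour array was 99.77. It averaged 11.46 ± 0.02 (SD, n = 2) in brain, 13.84 ± 0.07 (n = 2) in cultured cells, 14.50 ± 0.09, 14.62 ± 0.02 and 14.36 ± 0.14 in WT tumours from day 7 to the symptomatic stage, and 14.26 ± 0.06, 14.21 ± 0.01 and 14.12 ± 0.02 in Pfp/Rag2 -/- tumours. Differences among tumours were small, and whether a probe this bright still answers in proportion to its transcript was not tested.

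Tap1 was not detected in healthy brain, where it read 4.79 and 4.53, and read 8.57 and 8.55 in cultured cells. In WT tumours it read 10.37 and 9.94 on day 7, 10.64 and 11.15 on day 14, and 10.67, 10.81 and 10.88 at the symptomatic stage. In Pfp/Rag2 -/- tumours it read 8.72 and 8.82 on day 7, 9.35 and 9.62 on day 14, and 9.10, 9.29 and 9.27 at the symptomatic stage. The lowest WT array lay above the highest Pfp/Rag2 -/- array of any stage, and Pfp/Rag2 -/- day 7 tumours lay only just above cultured cells. Its partner Tap2 was detected in brain (7.69 ± 0.06, SD, n = 2) and averaged 9.40 ± 0.00 (n = 2) in cultured cells, 11.37, 11.77 and 11.76 in WT tumours and 10.14, 10.58 and 10.32 in Pfp/Rag2 -/- tumours. Tapbp, undetected by its brightest probe in brain, averaged 7.16 ± 0.39 (n = 2) in cultured cells, between 8.13 and 8.73 in WT tumours and between 7.28 and 7.70 in Pfp/Rag2 -/- tumours.

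Nlrc5, the transactivator, was not detected in brain, where it read 4.46 and 4.51, and read 8.14 and 8.36 in cultured cells. In WT tumours it read 10.104 and 9.918 on day 7, 10.38 and 10.75 on day 14, and 10.72, 10.59 and 10.73 at the symptomatic stage. In Pfp/Rag2 -/- tumours it read 8.16 and 8.55 on day 7, 9.06 and 9.02 on day 14, and 8.44, 8.78 and 8.80 at the symptomatic stage. Every WT tumour array lay above every Pfp/Rag2 -/- array, and Pfp/Rag2 -/- day 7 tumours overlapped cultured cells.

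**Figure D1:**
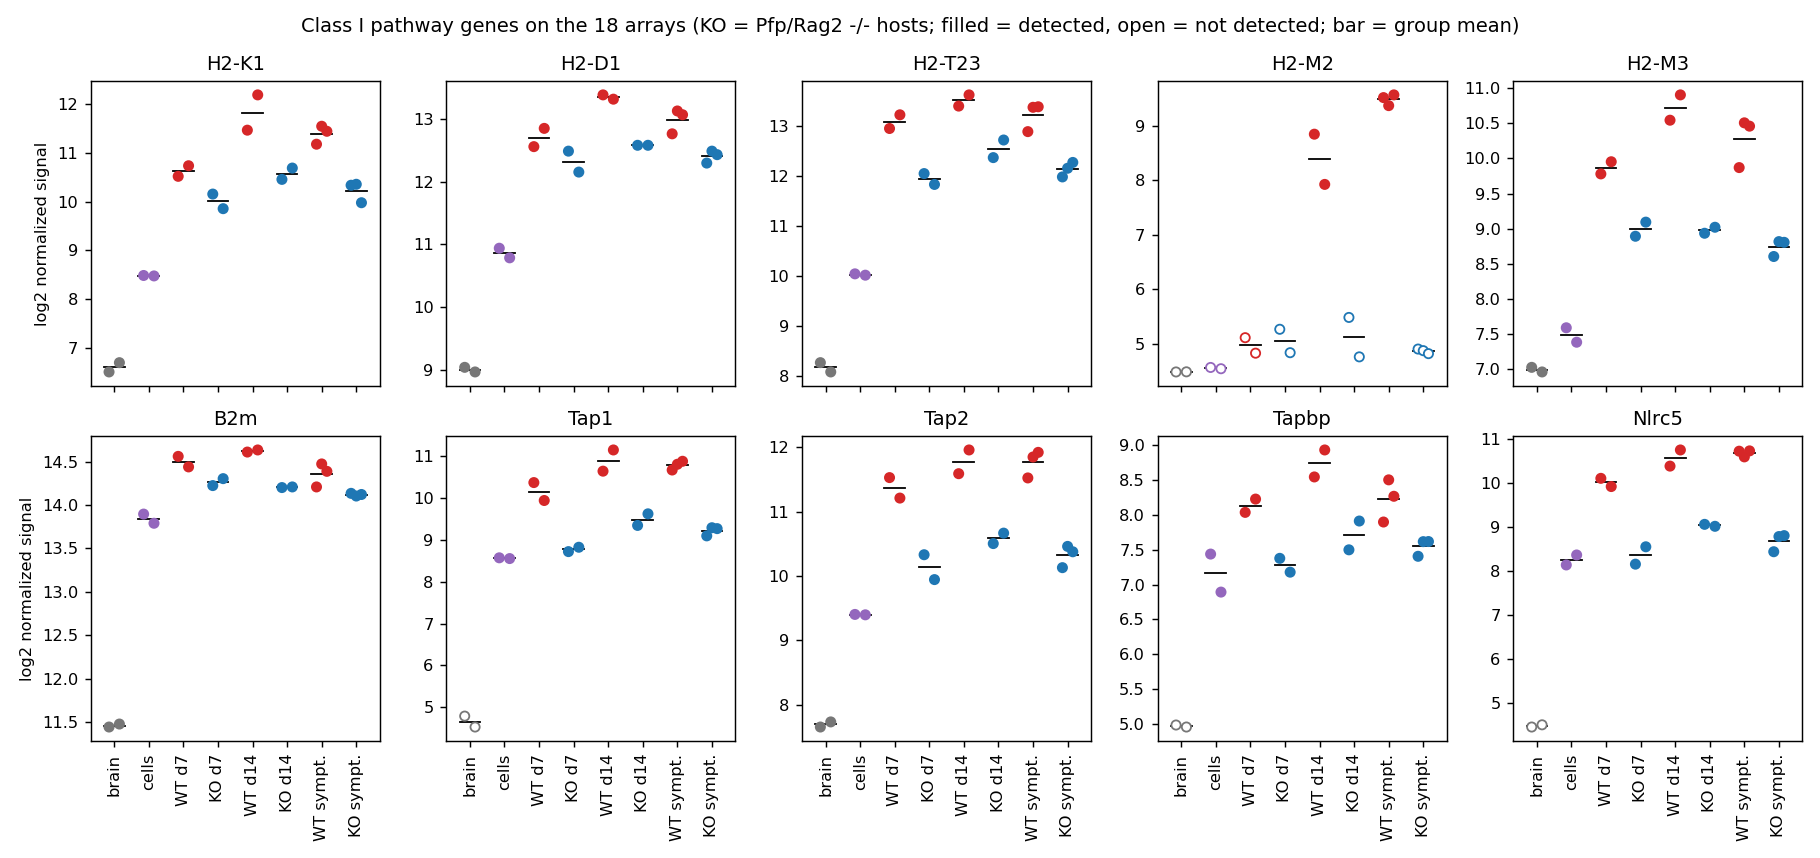
Log2 signal of each of the 10 genes (vertical axis) on every array of the 8 groups (horizontal axis). Points are arrays, open where the probe was not detected, horizontal bars are group means, and KO stands for Pfp/Rag2 -/- hosts. H2-M2 leaves background only on the 2 WT day 14 and 3 WT symptomatic arrays, while H2-K1, H2-D1, H2-T23 and H2-M3 are lowest in brain, higher in cultured cells and higher still in tumours.

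Within 5 of the 8 groups 1 array was high or low for most members. Array 1 of the cultured cells was the higher one for 9 of 10, the exception being Nlrc5. In the WT day 14 pair, array 2 was the higher one for 8 of 10 members, the exceptions being H2-D1 and H2-M2. Among the 3 WT symptomatic arrays, array 1 was the lowest for 8 of 10, the exceptions being H2-M2 and Nlrc5. In Pfp/Rag2 -/- tumours array 2 was the higher one on day 14 for 7 of 10, and array 1 the lowest at the symptomatic stage for 7 of 10.

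Promoter sequence of the 5 chains and B2m is shown because the class I promoter is known for a compact set of short elements that can be set side by side. RefSeq start sites on GRCm38.p6 gave windows of 300 bases, most of them upstream of the start, for 8 of the 10 members, all but Tap2 and Nlrc5. H2-K1 lies at chr17:34000298-34000597 on the minus strand and has a further annotated start, H2-D1 at chr17:35262844-35263143 on the plus strand, H2-T23 at chr17:36032652-36032951 on the minus strand, H2-M3 at chr17:37269984-37270283 on the plus strand, H2-M2 at chr17:37483505-37483804 on the minus strand and B2m at chr2:122147437-122147736 on the plus strand. Capitals mark every match, on either strand, to 1 of the 7 motifs described after the sequences, and each sequence reads 5′ to 3′ along the gene.
H2-K1: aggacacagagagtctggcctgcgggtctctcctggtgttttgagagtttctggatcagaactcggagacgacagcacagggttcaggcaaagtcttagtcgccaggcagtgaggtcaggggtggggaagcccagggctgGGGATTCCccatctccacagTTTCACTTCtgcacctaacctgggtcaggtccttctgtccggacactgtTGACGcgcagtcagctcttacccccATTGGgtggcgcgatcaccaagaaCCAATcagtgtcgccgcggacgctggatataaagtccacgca
H2-D1: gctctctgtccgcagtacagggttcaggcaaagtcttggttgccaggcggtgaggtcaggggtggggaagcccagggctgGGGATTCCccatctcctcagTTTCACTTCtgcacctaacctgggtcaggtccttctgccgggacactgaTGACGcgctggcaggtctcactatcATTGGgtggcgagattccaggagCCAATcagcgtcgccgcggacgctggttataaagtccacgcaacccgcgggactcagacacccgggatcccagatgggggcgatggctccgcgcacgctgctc
H2-T23: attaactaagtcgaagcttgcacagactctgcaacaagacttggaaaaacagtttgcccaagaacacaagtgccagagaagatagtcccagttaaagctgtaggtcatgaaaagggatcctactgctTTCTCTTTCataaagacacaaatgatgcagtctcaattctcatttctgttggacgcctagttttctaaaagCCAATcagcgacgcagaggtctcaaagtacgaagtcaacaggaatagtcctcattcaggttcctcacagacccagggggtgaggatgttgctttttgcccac
H2-M3: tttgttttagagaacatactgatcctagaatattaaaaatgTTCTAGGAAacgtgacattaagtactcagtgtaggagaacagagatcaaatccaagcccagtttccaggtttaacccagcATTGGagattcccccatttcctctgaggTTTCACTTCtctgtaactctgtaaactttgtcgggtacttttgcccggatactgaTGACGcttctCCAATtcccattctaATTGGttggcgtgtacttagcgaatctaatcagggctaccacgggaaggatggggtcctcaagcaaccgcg
H2-M2: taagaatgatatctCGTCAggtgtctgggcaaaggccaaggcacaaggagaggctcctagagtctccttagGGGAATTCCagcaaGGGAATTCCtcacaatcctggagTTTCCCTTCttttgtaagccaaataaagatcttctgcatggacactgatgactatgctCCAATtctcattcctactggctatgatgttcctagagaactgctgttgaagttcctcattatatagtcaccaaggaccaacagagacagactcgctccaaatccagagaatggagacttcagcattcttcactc
B2m: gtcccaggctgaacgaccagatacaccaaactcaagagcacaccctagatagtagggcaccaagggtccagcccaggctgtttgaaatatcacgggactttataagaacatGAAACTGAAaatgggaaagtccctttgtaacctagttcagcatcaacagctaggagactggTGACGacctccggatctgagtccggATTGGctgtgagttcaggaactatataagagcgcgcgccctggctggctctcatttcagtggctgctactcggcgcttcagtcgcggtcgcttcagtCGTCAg

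Each of the 7 motifs was searched on both strands, and no base was shared by matches of different motifs. CCAAT, the box bound by NF-Y, was in 8 of 8 member windows and in 37.9% of 27025 gene promoters of the same length. TGACG, the core of the X2 and CRE type element, was in 6 of 8 and in 21.0% of all promoters. The interferon-type spacing GAAANNGAA was in 2 of 8 members, H2-T23 and B2m, and in 8.57% of all promoters, and TTCNNNGAA, the spacing of STAT sites, was in 1 of 8, H2-M3, and in 8.47%. GGGANTTCC, of the NF-kappa-B type, was in 1 of 8 members and in 1.69% of promoters. That member was H2-M2, with matches at bases 72 and 86 of its window. A further pair of motifs was added after the sequences had been read, so their counts describe these windows only: GAANNGAAA was in 4 of 8 members (H2-K1, H2-D1, H2-M2 and H2-M3) and in 7.56% of all promoters, and GGGATTCC in 2 of 8 (H2-K1 and H2-D1) and in 1.07%. A match is a stretch of letters and was not tested as a binding site.

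The letters differed among the other chains as well as between H2-M2 and its neighbour in the M region. Without gaps, H2-K1 and H2-D1 were identical at 73.3% of 240 bases and H2-M2 and H2-M3 at 38.1% of 252, while H2-K1 was identical to H2-M2 at 38.5% of 247, to H2-M3 at 36.9% of 295 and to H2-T23 at 96 of 240 bases. The H2-T23 window held 1 CCAAT, at base 199, and no TGACG. In H2-M3, TGACG (bases 205 to 209 of the window), CCAAT (from base 215) and its reverse ATTGG (from base 230) follow each other. At the aligned bases of H2-M2 the CCAAT of base 167 was intact, whereas TGACG differed by G209T and ATTGG by T231C, numbered from 1 at the 5′ end of the H2-M3 window with the H2-M3 base first. The ATTGG from base 122 of H2-M3 differed at 5 bases and its GAANNGAAA match from base 150 at 7. That match was set against base 102 of H2-M2, whose own match lies at base 109. The identity was near that of H2-D1 and Tapbp (36.3% of 300), so common origin of the aligned bases was not shown. The only TGACG match in H2-M2 lay on the other strand at base 15, far from its CCAAT.

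Between hosts, WT tumours carried more signal of nearly all members at every stage, and H2-M2 was among them from day 14 on. These contrasts guided the choice of the genes and are given without p-values. Members past limma's threshold are counted as a description only. An excess over the share of all genes can follow from that choice and is no support. On day 7, 5 members passed the threshold upward, against 2.33% of all genes tested. WT exceeded Pfp/Rag2 -/- by 1.66 ± 0.17 (log2 difference ± SE, n = 2 arrays against 2) for Nlrc5, 1.38 ± 0.18 for Tap1, 1.23 ± 0.19 for Tap2, 1.15 ± 0.19 for H2-T23 and 0.88 ± 0.20 for H2-M3. Those below the threshold were Tapbp at 0.85 ± 0.23, H2-K1 at 0.62 ± 0.22, H2-D1 at 0.39 ± 0.16, B2m at 0.24 ± 0.11 and H2-M2 at -0.08 ± 0.27. For H2-M2 both groups were at background and the arrays overlapped.

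On day 14 all 10 members passed upward, against 7.05% of all genes. H2-M2 was at least 5.73-fold higher in WT tumours, a bound set on each dim array by the higher of the probe's own signal and the lowest signal of any detected probe, and its measured log2 difference was 3.26 ± 0.27. The next were H2-M3 at 1.75 ± 0.20, Nlrc5 at 1.53 ± 0.17, Tap1 at 1.41 ± 0.18 and H2-K1 at 1.26 ± 0.22, with the lowest for H2-D1 (0.77 ± 0.16) and B2m (0.42 ± 0.11). At the symptomatic stage 9 members passed upward, against 9.18% of all genes, the exception being B2m at 0.24 ± 0.09 (n = 3 against 3). H2-M2 was at least 12.3-fold higher, with a measured difference of 4.62 ± 0.22, followed by Nlrc5 at 2.00 ± 0.14, Tap1 at 1.57 ± 0.15, H2-M3 at 1.54 ± 0.16 and Tap2 at 1.44 ± 0.15. The median member difference was 0.86, 1.22 and 1.30 at the successive stages, where the median of all genes was -0.02, -0.06 and -0.02.

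**Figure D2:**
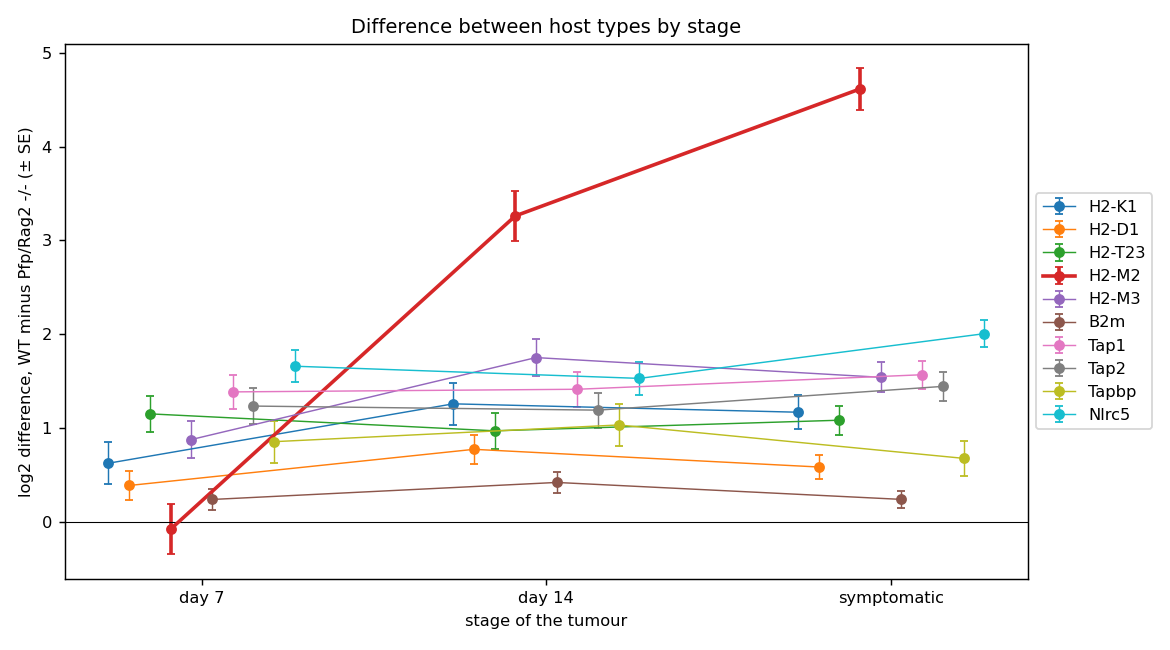
Log2 difference between WT and Pfp/Rag2 -/- tumours (vertical axis, error bars SE, horizontal axis the stage) for the 10 genes on day 7, day 14 and at the symptomatic stage. Nlrc5, Tap1 and Tap2 are high at each stage, while H2-M2 goes from -0.08 on day 7 to 3.26 on day 14 and 4.62 at the symptomatic stage.

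Where a gene had further detected probes, these gave host differences of the same direction. The dimmer H2-K1 probe gave 1.04 ± 0.22, 1.38 ± 0.22 and 1.05 ± 0.18 at the successive stages, and the dimmer H2-D1 probe 0.51 ± 0.13, 0.71 ± 0.13 and 0.53 ± 0.10. The 3 H2-T23 probes lay within 1.15 to 1.20 on day 7, 0.84 to 1.00 on day 14 and 1.05 to 1.08 at the symptomatic stage. H2-M2, H2-M3, Tap1, Tap2 and Nlrc5 rest on 1 probe each, and 1 further H2-D1 probe and 1 further B2m probe were detected on 0 arrays.

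The change of the host difference between stages is built from the same contrasts and is likewise described. From day 7 to day 14 the measured change for H2-M2 was 3.34 ± 0.38, where 3 of the 4 groups compared were at background, so its size is not exact. The other 9 lay between -0.18 ± 0.27 for H2-T23 and 0.87 ± 0.28 for H2-M3, and 0 of them passed in limma, against 1.58% of all genes in the upward direction. At an unadjusted p under 0.05 there was 1 of these 9, H2-M3, and 2663 genes in either direction with H2-M2 among them. From day 14 to the symptomatic stage 0 members and 0% of the 13795 genes passed in limma, while at an unadjusted p under 0.05 there were 1 member, H2-M2 at 1.36 ± 0.35 with both Pfp/Rag2 -/- groups at background, and 2206 genes.

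Immune cell markers differed between the hosts too. The summed linear signal of 10 macrophage and monocyte markers ranged over 9880 to 10170, 14133 to 18021 and 10361 to 11268 in WT tumours on day 7, day 14 and at the symptomatic stage, and over 3323 to 6556, 3252 to 3456 and 2456 to 2768 in Pfp/Rag2 -/- tumours. For 6 T cell markers the sums were 897 to 1024, 2000 to 2034 and 983 to 1350 in WT tumours and 323 to 430, 577 to 601 and 450 to 556 in Pfp/Rag2 -/- tumours. Of these 6, Cd4 was detected on no tumour array of either host, Cd3d, Cd3e and Cd2 on no Pfp/Rag2 -/- array, and Cd3g on 1 of 2 Pfp/Rag2 -/- arrays on day 14 and on 3 of 3 at the symptomatic stage. Cultured cells summed to 519 to 526 through Lck, which read 8.55 on both arrays there, with the other 5 undetected, so the T cell sum is not free of signal from the tumour line. At a given stage the lowest WT sum exceeded the highest Pfp/Rag2 -/- sum for both sets, and their part in the host differences was not tested. In tumour pieces, more cells of a type and more RNA per cell cannot be told apart.

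Other marker sums moved across the WT stages as follows. The B cell pair of markers was highest on WT day 14 arrays (1424 to 3622), lower on WT symptomatic arrays (187 to 611) and at 149 to 251 on WT day 7 arrays, and Cd79b was undetected at the symptomatic stage, where H2-M2 was highest. Among 4 dendritic cell markers the sums were 509 to 517, 635 to 837 and 301 to 405 across the WT stages, and Itgax was detected on 1 WT day 14 and 1 WT symptomatic array. For 2 NK markers the sums were 356 to 574, 605 to 947 and 687 to 772 across the WT stages. In Pfp/Rag2 -/- tumours they were 293 to 298, 299 to 342 and 320 to 364, and in cultured cells 505 to 686. The 6 microglia markers summed to 5036 to 5970, 6983 to 7041 and 3822 to 8163 across the WT stages. Tissue of the tumour's surroundings varied as well: 5 choroid plexus markers summed to 22419 to 30122 in Pfp/Rag2 -/- day 7 tumours and 3238 to 9811 in WT day 7 tumours, and 3 neuron markers lay between 13947 and 15458 in the latter and between 10935 and 20685 in the former. The part of any of these lists in the host differences or in the H2-M2 levels was not tested.

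**Figure D3:**
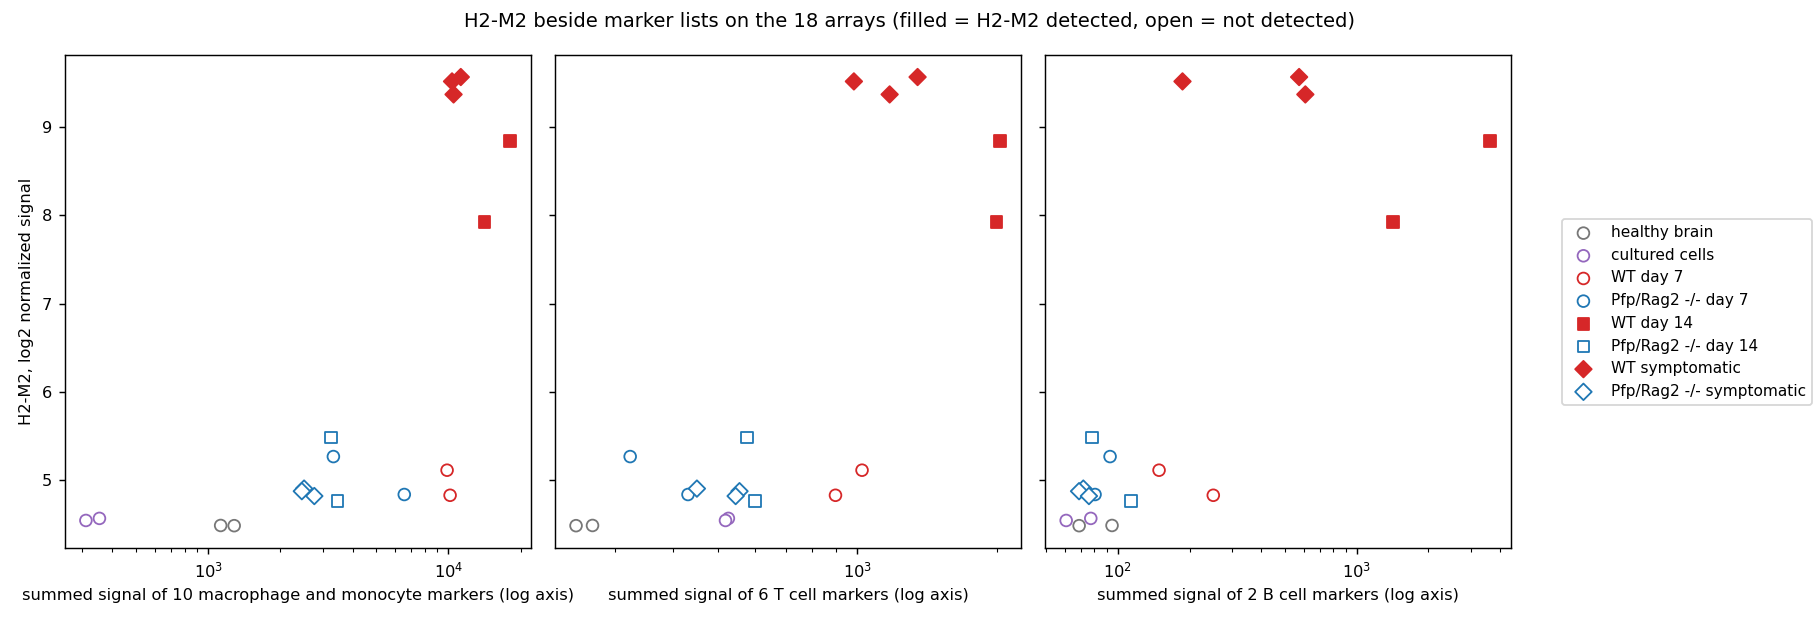
H2-M2 log2 signal (vertical axis) against the summed linear signal of 10 macrophage and monocyte, 6 T cell and 2 B cell markers (horizontal log axes) on the 18 arrays, 1 point per array, filled where H2-M2 was detected. H2-M2 is detected on the 5 WT day 14 and WT symptomatic arrays, and the T cell sums are highest on WT day 14 arrays (2000 to 2034).

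Over time in WT hosts, from day 7 to day 14, 4 of the 9 members other than H2-M2 rose, against 3.85% of all genes, and none fell. H2-M2 was at least 6.82-fold higher on day 14 (measured log2 difference 3.41 ± 0.27), which is given without a test, since H2-M2 entered the tested genes only through the groups where it was high. H2-K1 rose by 1.20 ± 0.22 (adjusted p = 0.00823, limma), H2-M3 by 0.86 ± 0.20 (adjusted p = 0.0217), Tap1 by 0.74 ± 0.18 (adjusted p = 0.0294) and H2-D1 by 0.65 ± 0.16 (adjusted p = 0.0256). The other 5 lay between 0.12 for B2m (adjusted p = 0.489) and 0.61 for Tapbp (adjusted p = 0.107) and did not pass, although Nlrc5 at 0.55 passed with a replicate block (adjusted p = 0.0497), without background correction (adjusted p = 0.0306) and without WT day 14 replicate 1 (adjusted p = 0.0241). The median over the 9 was 0.61 and over all genes 0.07. WT day 14 arrays also enter the host contrast that guided the choice of genes. All 4 calls were lost when only these 4 arrays were fitted (adjusted p from 0.201 to 0.274). H2-K1 and H2-D1 lost theirs without WT day 7 replicate 1 or WT day 14 replicate 2, and H2-M3 and Tap1 also without WT day 7 replicate 2. H2-D1, H2-M3 and Tap1 lost theirs with series matrix values too (adjusted p from 0.0782 to 0.0831) and with the 14 tumour arrays by themselves (adjusted p from 0.0513 to 0.0634).

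From day 14 to the symptomatic stage in WT hosts, 1 of 10 members was called upward, a share near the 9.71% of all genes. This was H2-M2, higher by a further 1.10 ± 0.25 (adjusted p = 0.0121, limma, n = 3 against 2). H2-M2 passed the detection filter only through these 2 groups, which also enter the host contrasts that guided the choice of genes. Its p-value is therefore not independent of that choice. The other 9 lay between -0.51 for Tapbp (adjusted p = 0.0930) and 0.11 for Nlrc5 (adjusted p = 0.626) and none passed. Without WT day 14 replicate 2, where H2-M2 read 7.92, its difference was 0.64 (adjusted p = 0.0639), and with only these 5 arrays fitted the adjusted p was 0.0953. With unscaled series matrix values 5 members (H2-K1, H2-D1, H2-T23, H2-M3 and Tapbp) were called lower beside the higher H2-M2, among 2615 genes lower and 94 higher of 7456 tested. With cyclic loess 2 members were called lower (H2-M3 and Tapbp), without background correction 1 (B2m), and by its dimmer probe H2-D1 was (-0.43, adjusted p = 0.0258). Cd8b1, a chain of the T cell co-receptor that binds class I, fell over the same interval by 1.16 ± 0.30 (adjusted p = 0.0198), and Ifng, the gene of interferon-gamma, fell by 0.91 ± 0.30 (adjusted p = 0.0473). The part of either in the levels of the members was not tested.

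In Pfp/Rag2 -/- hosts, from day 7 to day 14, 3 members rose, against 18.9% of all genes: Tap1 by 0.71 ± 0.18 (adjusted p = 0.0135, limma), Nlrc5 by 0.68 ± 0.17 (adjusted p = 0.0121) and H2-T23 by 0.61 ± 0.19 (adjusted p = 0.0280). Tap1 and Nlrc5 lost the call without Pfp/Rag2 -/- day 7 replicate 1 or day 14 replicate 2, and H2-T23 without either of these or day 7 replicate 2. With series matrix values, or with only the arrays compared in the fit, 0 members were called. Pfp/Rag2 -/- arrays also enter the host contrasts that guided the choice of genes. H2-K1 at 0.57 (adjusted p = 0.0612) did not pass, while the dimmer H2-K1 probe gave 0.74 (adjusted p = 0.0245) and the dimmer H2-D1 probe 0.37 (adjusted p = 0.0405), both past the threshold. H2-M3 was at -0.02 (adjusted p = 0.957), and H2-M2 was at background on both days. Choroid plexus markers summed to 22419 to 30122 on day 7 and 320 to 423 on day 14 in these hosts, and their part in the result was not tested. From day 14 to the symptomatic stage 0 members were called, against 0.00725% of all genes upward. All 10 differences were below 0 there, between -0.41 for H2-T23 and -0.08 for B2m, and at an unadjusted p under 0.05 limma gave 2 members, H2-T23 and Nlrc5, and 1080 of 13795 genes. With unscaled series matrix values 9 members were called lower there, among 2385 genes lower and 3 higher of 7456 tested.

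**Figure D4:**
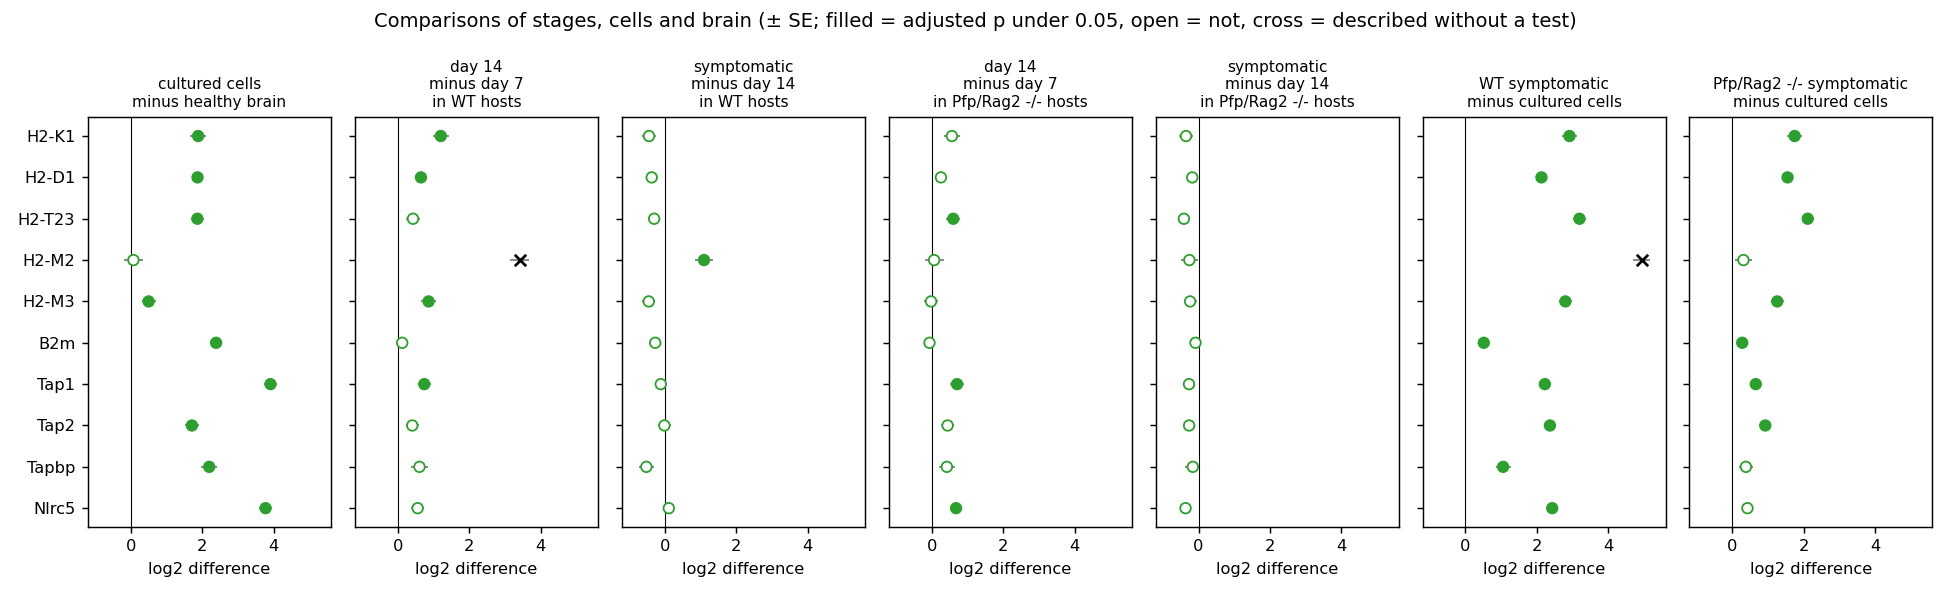
Log2 differences (horizontal axes, error bars SE) of the 10 genes in the 7 tested comparisons of stages, cells and brain, filled where the adjusted p was under 0.05, with crosses for H2-M2 values given without a test. H2-M2 in WT hosts lies at 3.41 from day 7 to day 14 and 1.10 from day 14 to the symptomatic stage, where the other 9 genes lie between -0.51 and 1.20 in the 4 panels of stages.

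Cultured GL261 cells had more class I signal than healthy brain. Of the 10 members 9 were higher, against 42.2% of all genes, so that a large part of the transcriptome differed between a cell line and a tissue. Tap1 was at least 7.03-fold higher (adjusted p = 1.19e-09, limma) and Nlrc5 at least 5.67-fold (adjusted p = 9.45e-10), as both were undetected in brain. Tapbp was at least 2.67-fold higher (adjusted p = 1.22e-06, limma) by its brightest probe, which was undetected in brain. A further Tapbp probe was detected on 17 of 18 arrays, so on at least 1 brain array. It gave a log2 difference of 1.44 ± 0.28, where the brightest probe gave a measured 2.19 ± 0.23. B2m was higher by 2.38 ± 0.11 (adjusted p = 9.53e-10), and H2-K1, H2-D1, H2-T23 and Tap2 by 1.71 to 1.88, each with an adjusted p of at most 4.19e-06. H2-M3 was higher by only 0.49 ± 0.20 (adjusted p = 0.0361), a call that cyclic loess scaling turned to -0.06 and the series matrix values to -0.11, and that was lost without brain replicate 1, brain replicate 2 or cells replicate 1 (adjusted p = 0.082, 0.124 and 0.179), and without background correction or detection filter (adjusted p = 0.11 and 0.055). H2-M2 was at background in both. Pan-leukocyte markers, 3 of 3, and macrophage markers, 9 of 10, were undetected in the cultured cells. Detected there were 1 of 10 macrophage, 3 of 6 microglia, 1 of 2 NK, 1 of 4 dendritic cell and 1 of 6 T cell markers. Their bearing on the class I levels of these cells was not tested.

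Symptomatic WT tumours exceeded the cultured cells for all 9 members other than H2-M2, against 16.9% of all genes. Symptomatic arrays of both hosts enter the host contrasts that guided the choice of genes. Counts, p-values and medians of members in these comparisons are not independent of that choice. H2-M2 was at least 9.49-fold higher, given without a test as above. H2-T23 was higher by 3.19 ± 0.17 (adjusted p = 1.23e-08, limma), H2-K1 by 2.91 ± 0.20 (adjusted p = 1.22e-07) and H2-M3 by 2.80 ± 0.18 (adjusted p = 6.05e-08), while Tapbp at 1.06 ± 0.21 (adjusted p = 0.00141) and B2m at 0.51 ± 0.10 (adjusted p = 0.00137) moved least, and the dimmer Tapbp probe (0.70, adjusted p = 0.0507) did not pass. Symptomatic Pfp/Rag2 -/- tumours exceeded them for 7 members, against 18.1% of all genes, led by H2-T23 at 2.11 ± 0.17 (adjusted p = 8.54e-07), H2-K1 at 1.74 ± 0.20 (adjusted p = 2.12e-05), H2-D1 at 1.55 ± 0.14 (adjusted p = 2.30e-06) and H2-M3 at 1.26 ± 0.18 (adjusted p = 0.000131). Tap1 at 0.66 lost its call without either array of cells, and B2m at 0.28 lost it without any 1 of the 5 arrays. Nlrc5 at 0.42 ± 0.16 (adjusted p = 0.0523) and Tapbp at 0.38 ± 0.21 (adjusted p = 0.172) did not pass, though both did with cyclic loess (adjusted p = 0.0102 and 0.0435) and with series matrix values (adjusted p = 0.000115 and 0.00133), and H2-M2 was at background on both sides. The median difference of the 9 was 2.36 in WT tumours and 0.92 in Pfp/Rag2 -/- tumours, and macrophage sums were 10361 to 11268 and 2456 to 2768 against 310 to 353 in the cells, a difference whose part in these results was not tested.

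On the proteasome side the list held the inducible catalytic subunits Psmb8, Psmb9 and Psmb10 and the activator subunits Psme1 and Psme2, and was chosen with results of these data known. Counts of this list and the next 4 in the host contrasts stand beside the shares of all genes passing upward there, 2.33%, 7.05% and 9.18%. These counts are a description too, since an excess can follow from the choice of the lists. In each host contrast 4 of 5 passed upward and 0 downward, the exception being Psme2 (0.16, 0.06 and 0.35 at the successive stages), and Psmb9 differed by 1.70 ± 0.17, 1.59 ± 0.17 and 2.14 ± 0.14. All 5 were higher in cultured cells than in brain, against 42.2% of all genes, Psmb9 by 3.11 ± 0.17 (adjusted p = 4.45e-09, limma) and Psme1 by 2.04 ± 0.12 (adjusted p = 7.38e-09). From day 7 to day 14, 1 of 5 rose in WT hosts, against 3.85% of all genes, namely Psme1 by 0.43 ± 0.12 (adjusted p = 0.0428), and 4 of 5 rose in Pfp/Rag2 -/- hosts, against 18.9%, Psmb8 by 0.91 ± 0.28 (adjusted p = 0.0242). The change of the host difference over this interval lay between -0.14 for Psmb8 and 0.17 for Psme1, given as a description as above. In limma 0 of 5 passed, against 1.58% of all genes upward. Symptomatic Pfp/Rag2 -/- tumours exceeded cultured cells for 4, against 18.1% of all genes, while Psme2 fell by 0.72 ± 0.17 (adjusted p = 0.00548).

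Of 6 loading genes 5 were tested, and 1 of them passed in every host contrast. Tapbpl (TAPBPR), a tapasin relative that edits bound peptides, was higher in WT hosts by 1.91 ± 0.20, 1.59 ± 0.20 and 1.92 ± 0.17 at the 3 stages and rose from day 7 to day 14 in Pfp/Rag2 -/- hosts by 0.98 ± 0.20 (adjusted p = 0.00602, limma). Erap1, the peptidase that trims peptides in the endoplasmic reticulum, was detected on 2 WT symptomatic arrays and no other tumour array, with a host difference there of at least 1.07-fold. The general chaperones Calr, Pdia3 and Hspa5 passed in no host contrast, and Calr was lower in symptomatic WT tumours than in cells by 0.64 ± 0.20 (adjusted p = 0.0246).

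Other class I and class I-like chains gave 9 tested genes of 21 listed. Upward in WT hosts passed 1 on day 7 (H2-Q6), 4 on day 14 (H2-Q6, H2-Q7, H2-Bl and Fcgrt) and 5 at the symptomatic stage, where H2-T10 joined these. For the change of the host difference from day 7 to day 14, described as above, 1 of the 9 passed upward in limma, against 1.58% of all genes. The median change was 0.51 over the 9 and -0.05 over all genes. H2-Bl rose from day 7 to day 14 in WT hosts by 2.16 ± 0.30 (adjusted p = 0.00201, limma) and in Pfp/Rag2 -/- hosts by 1.54 ± 0.30 (adjusted p = 0.00505), and it was detected on every tumour array. Fcgrt, the neonatal Fc receptor chain, fell in Pfp/Rag2 -/- hosts over that interval by 1.29 ± 0.29 (adjusted p = 0.00767). H2-M10.1, another chain of the M region, was detected on 0 arrays on day 7 and day 14 and on 1 of 3 arrays of each host at the symptomatic stage, so no host difference can be read. Cd1d1, which presents lipids, gave host differences of 0.03, -0.01 and 0.00. Classical and Q-region class I genes are close copies of each other, and signal of 1 copy on the probe of another cannot be separated here, so values of H2-K1, H2-D1, H2-T23, H2-Q6 and H2-Q7 are uncertain in that respect.

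Of 18 regulators 14 were tested. Ifng was at least 2.81-fold, 2.35-fold and 1.25-fold higher in WT hosts at the successive stages, and Irf8, an interferon regulatory factor of myeloid cells, was higher by 1.95 ± 0.27, 2.00 ± 0.27 and 2.06 ± 0.22. In all, 5, 5 and 3 passed upward, and Rfxap passed downward on day 14 (-0.60 ± 0.15). From day 7 to day 14 in WT hosts Ifng was at -0.05 (adjusted p = 0.939, limma), and its part in the levels of the members was not tested. Cultured cells had 7 of 14 regulators higher than brain in limma's test, near the 42.2% of all genes, and 2 lower.

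Receptors listed for class I or class I-like ligands gave 5 tested genes of 10, and whether each binds class I itself was not examined. On day 7, day 14 and at the symptomatic stage 3, 5 and 5 passed upward in WT hosts, and Cd8b1 was at least 3.13-fold, 8.99-fold and 4.03-fold higher. From day 7 to day 14 in WT hosts Cd8b1 rose by 1.74 ± 0.32 (adjusted p = 0.00846, limma) and Klrk1, the gene of the activating receptor NKG2D, by 1.22 ± 0.23 (adjusted p = 0.0094). From day 14 to the symptomatic stage Klrk1 was at -0.07 (adjusted p = 0.839).

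Likeness between genes was measured as the root mean square difference of the 8 group means after each gene's own mean was taken off, so a smaller value is a closer pattern. Within the members Tap1 and Nlrc5 were closest, at 0.147, whereas 6 of the 8 group means of H2-M2 were background values, so that likeness to it rests on the 2 groups where it was detected. The 5 genes most like H2-M2 among 13794 were Gzmd, a granzyme gene (0.389), Dnase1l3, a DNase gene (0.464), Apol6 (0.471), the entry IGH-VJ558 (0.537) and LOC100048554 (0.573). Gzmd averaged 8.35 and 8.90 in WT day 14 and symptomatic tumours and between 4.67 and 5.73 in the other groups. For H2-K1 the nearest were H2-Q7 (0.167), LOC674135 (0.211), H2-K2 (0.238), H2-Q5 (0.253) and H2-T23 (0.273), and 6 members were among its nearest 50. The tumour group means enter the host contrasts that guided the choice of members, so likeness among members is not independent of that choice. Signal shared among class I copies cannot be separated here either. By Pearson correlation instead, H2-M2 kept 1 of its 5 nearest and H2-K1 3. The patterns share arrays, depth and 8 points each, so they are a description.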

How the data were processed

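RNA pools of GL261 tumours, healthy brain and cultured GL261 cells were hybridised as biotinylated cRNA to Illumina MouseWG-6 v2.0 arrays, per the labels' protocols. The probe file that the authors deposited holds linear intensity values, neither background-subtracted nor scaled between arrays, as array medians from 67.2 to 134 show. A gene table holds group signals and a detection score, deposited in a unit named other here for its decimal commas, from GenomeStudio 1.9.0 per the submitters' processing notes. Genes were tied to probes by recomputing these group signals, within 0.06, which linked 29627 of 30854 genes. Decoys were run only in the search for 1 probe per gene, where 0 of 30854 were linked. Links to several probes, as for H2-K1, H2-D1, H2-T23, B2m and Tapbp, had no decoy check. The number of arrays limits the precision.

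Probe intensities were processed with limma 3.58.1 in R 4.3.3 (neqc, offset 16), as the opening states, and 1 mean per group was fitted with lmFit and eBayes. No slide or scan date was given, so no batch could be tested. Promoters were searched with Python 3.11.15. The fit was tested on simulated data. All 10 members and genes of their companion lists were named, except 1 listed gene that is counted but not reported here, and these lists, like the members, were chosen with earlier results of these data known. Alternatives were other scaling, no background correction, the deposited series matrix intensities, no detection filter, fewer arrays, leaving out each array, each probe by itself, and a replicate block. Titles and descriptions number symptomatic Pfp/Rag2 -/- replicates 2 and 3 differently, and titles were used. The design listed a test of the change of host differences, which is given as description.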

Additional observations from a re-analysis of the deposited data

Results flagged for a closer look

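The host difference of H2-M2 (WT minus Pfp/Rag2 -/-) was higher on day 14 than on day 7 by a measured 3.34 on the log2 scale, and this change between stages is why it is listed. On day 7 all 4 arrays of both hosts were at background and overlapped, and on day 14 H2-M2 was detected on both WT arrays and on neither Pfp/Rag2 -/- array. No test is drawn from it, since host differences guided the choice of the genes and 3 of the 4 groups were at background, and the value was 2.88 to 3.80 without any 1 of the 8 arrays.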

How the results depend on the processing

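Host differences of all members other than H2-M2 on day 7, where both groups were at background, kept their direction under every alternative run. Directions turned, with no call in the alternative and with a cause that was not tested, as follows. Changes of the host difference are listed here for further probes only. Cyclic loess gave -0.0603 for H2-M3 in cells minus brain and 0.0252 for B2m from day 7 to day 14 in Pfp/Rag2 -/- hosts. Series matrix values gave -0.0104 for H2-M2 and -0.11 for H2-M3 in cells minus brain, -0.16 for Nlrc5 from day 14 to the symptomatic stage in WT hosts, and -0.27 for H2-M2 and -0.0506 for Tapbp from day 7 to day 14 in Pfp/Rag2 -/- hosts. A further probe gave -0.0075 for B2m from day 7 to day 14 in WT hosts and -0.0709 for Tapbp in Pfp/Rag2 -/- symptomatic tumours minus cells. For the change of the Tapbp host difference from day 14 to the symptomatic stage it gave 0.0123, where the probe used gave -0.36.

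Counts of genes called moved as follows. For cells minus brain, 10487 became 6568 with series matrix values, of 7456 genes tested there. For Pfp/Rag2 -/- symptomatic minus day 14, 5 became 2 (cyclic loess), 3 (no background correction), 2388 (series matrix), 2 (replicate block), 0 (14 tumour arrays) and 0 (only the arrays compared). For the change of the host difference from day 7 to day 14, 332 became 164 (series matrix), 181 (no detection filter), 38 (14 tumour arrays) and 0 (only the arrays compared), and for that from day 14 to the symptomatic stage 0 became 4 (cyclic loess), 1 (no background correction), 10 (series matrix) and 6 (no filter). With the 14 tumour arrays, 469 for the day 7 host contrast became 282, 1171 for WT day 14 minus day 7 became 521 and 2649 for WT symptomatic minus day 14 became 1605. With only the arrays compared, which leaves few residual degrees of freedom, the host counts were 65 on day 7 and 184 on day 14 (1868 otherwise), WT day 14 minus day 7 gave 0, WT symptomatic minus day 14 gave 1, and Pfp/Rag2 -/- day 14 minus day 7 gave 1 (4866 otherwise).

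Leaving out each array in turn gave 123 to 1229, 883 to 2320 and 1553 to 2286 genes for the 3 host contrasts, 141 to 2725 and 273 to 3767 for the WT stages, 436 to 5409 and 0 to 3 for the Pfp/Rag2 -/- stages, 2920 to 4391 and 2996 to 4151 for WT and Pfp/Rag2 -/- symptomatic tumours minus cells, and 15 to 1322 and 0 to 424 for the 2 changes of host difference. Members that turned direction in the comparisons of stages and cells lay between -0.36 and 0.14 for Tap1, -0.19 and 0.17 for Tap2 and -0.0688 and 0.30 for Nlrc5 in WT symptomatic minus day 14, between -0.29 and 0.43 for H2-M2 and -0.12 and 0.0856 for H2-M3 in Pfp/Rag2 -/- day 14 minus day 7, and between -0.62 and 0.11 for H2-M2 and -0.36 and 0.0476 for Tapbp in Pfp/Rag2 -/- symptomatic minus day 14. Among described values, H2-M2 in the day 7 host contrast ran from -0.30 to 0.13. Ranges that held 0 for the change of the host difference were -0.23 to 0.28 (Tap1), -0.24 to 0.15 (Tap2), -0.0278 to 0.38 (Tapbp) and -0.33 to 0.0672 (Nlrc5) from day 7 to day 14, and -0.45 to 0.27 (H2-K1), -0.0633 to 0.29 (H2-T23) and -0.0984 to 0.41 (Tap1) from day 14 to the symptomatic stage.

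Deviations of same-numbered arrays of different groups correlated at r from -0.24 to 0.712 (median 0.01), with 20 of 57 pairs over 0.1, so the numbers were not taken to pair the arrays. The main limits are 2 or 3 pooled arrays per group, the B2m probe near the top of the signal range, H2-M2 at background on 13 of 18 arrays, and possible shared signal among class I copies.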
